A study of Mus musculus with 15 samples.

Results

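The genes described here are those of the major histocompatibility complex (MHC) and of antigen presentation in mouse stomach. They are every gene whose symbol starts with H2-, the prefix of the mouse MHC, together with B2m, Tap1, Tap2, Tapbp, Psmb8, Psmb9, Psmb10, Nlrc5, Ciita, Cd74, Erap1 and Calr, kept where at least 3 libraries held 10 or more counts. Of 57 such symbols 34 were kept, out of 36144 genes in the count table, and 12 were at 0 in every library. The 34 were 3 classical class I heavy chain genes by symbol, 13 non-classical class I heavy chain genes, 10 genes of class I light chain, peptide supply and class I control, 7 class II genes, and H2-Ke6, a dehydrogenase gene of the region that encodes no MHC molecule. On GRCm38, 27 of the 34 lie on chromosome 17 between 33915899 and 37483552. H2-K2, H2-Q5, H2-T10 and H2-T-ps are annotated as pseudogenes in GENCODE M21, of which H2-Q5 and H2-T10 as polymorphic ones.

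Bulk RNA sequencing compared normal stomach tissue with tumors of 4 sites: the antrum, the corpus, and the greater and the lesser curvature of the cardia, with 3 libraries in each of the 5 groups. All 15 libraries, normals included, came from C57BL/6 mice aged 7 to 8 weeks per the labels that carried Pou2f3-CreERT, Rb1fl/fl, Trp53fl/fl and LSL-MycT58A, and that were given tamoxifen at 50 mg/kg by injection, with tissue taken at 5 weeks. The Pou2f3 promoter, active in tuft cells, drives a tamoxifen-dependent Cre recombinase that removes both tumor suppressor genes and switches on a stabilized Myc. The labels do not give the site of the normal tissue, they do not say whether replicates are separate animals, and the normals are not a group without the alleles or without tamoxifen.

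Class I molecules consist of a heavy chain and B2m, sit on most nucleated cells and show peptides from inside the cell to CD8+ T cells. Proteasomes cut those peptides, the Tap1 and Tap2 transporter carries them into the endoplasmic reticulum, Erap1 trims them, and Tapbp with Calr loads them. Class II molecules, assembled around the invariant chain Cd74, show peptides from endosomes to CD4+ T cells and are made mainly by dendritic cells, macrophages and B cells, with expression in epithelium under inflammation. Interferon gamma, acting in part through Irf1, raises class I genes through Nlrc5 and class II genes through Ciita, the co-activators that work on a shared set of promoter elements.

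Library totals ran from 7957160 counts in lesser curvature replicate 2 to 21565000 in greater curvature replicate 2, so that 1 count was worth 0.0478 to 0.112 CPM (counts scaled to a common library total). Some libraries stood apart: greater curvature replicate 2 and corpus replicate 1 lay among the normals on the first principal component, which held 46.9% of the variance. The sum of 4 epithelial markers (Epcam, Krt8, Krt18 and Cdh1) was 2969 to 7668 CPM in the normals, but 179.7 in antrum replicate 1 and 133 in lesser curvature replicate 1. Normal replicate 2 held 4177 CPM of squamous forestomach markers, against 0.535 and 1.47 in the other normals, and the lesser curvature tumors held 148, 775 and 401 CPM of them, against at most 22.4 in any other tumor. In bulk tissue, fewer cells of a type and less RNA per cell cannot be told apart, and each level below is of that kind.

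The promoters of several members are shown because the genes they belong to varied together from tumor to tumor and because several carry elements through which these genes are known to be induced. RefSeq on GRCm38.p6 gave the 250 bases before the start of 25 of the 34 members, of which 20 were of class I and 4 of class II. Capitals mark, on either strand, GGGATTCCC (the centre of the kappa B site of class I genes) or GGGANTTCC (a kappa B site in another spelling). They also mark GAAANNGAA on either strand, a spelling of the repeat of an interferon-stimulated response element. H2-K1 (chr17:34000348-34000597, minus strand), H2-D1 (chr17:35262844-35263093, plus strand) and H2-Q6 (chr17:35424600-35424849, plus strand) carried GGGATTCCC at 110, 170 and 172 bases before the start. H2-Q7 carried it too, and 0.301% of 32851 promoters of this length held it. B2m (chr2:122147437-122147686, plus strand) and H2-T23 (chr17:36032702-36032951, minus strand) carried GAAANNGAA, as did H2-T22 and Erap1, and 7.13% of promoters held it. The same repeat with its longer and shorter parts swapped was not searched and is not marked. The H2-K1, H2-D1 and H2-Q6 sequences hold that form in lower case after GGGATTCCC. Their absence from the list for GAAANNGAA therefore does not mean that they lack the repeat. The share of all promoters with the swapped form was not computed. H2-Aa (chr17:34287824-34288073, minus strand) carried GGGANTTCC, as did H2-Q4 and H2-M2, and 1.43% of promoters held it. Tap1 (chr17:34187306-34187555, plus strand) held none of the marked spellings. It is shown because its RefSeq start and that of Psmb9 lie 226 bases apart in opposite directions, so that the bases between the starts are upstream of both. In GENCODE M21 the span of Psmb9, on the minus strand, reaches to 34187764, past the Tap1 start at 34187553, so there the genes overlap.
H2-K1: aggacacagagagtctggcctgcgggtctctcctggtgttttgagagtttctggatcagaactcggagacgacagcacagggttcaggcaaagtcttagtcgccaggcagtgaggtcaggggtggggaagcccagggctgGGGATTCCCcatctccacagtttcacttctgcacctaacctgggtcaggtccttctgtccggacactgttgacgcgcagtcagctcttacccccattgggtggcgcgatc
H2-D1: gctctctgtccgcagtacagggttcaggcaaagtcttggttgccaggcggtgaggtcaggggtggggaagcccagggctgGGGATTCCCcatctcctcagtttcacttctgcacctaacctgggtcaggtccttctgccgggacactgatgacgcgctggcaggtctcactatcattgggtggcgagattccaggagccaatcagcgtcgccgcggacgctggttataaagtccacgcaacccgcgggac
H2-Q6: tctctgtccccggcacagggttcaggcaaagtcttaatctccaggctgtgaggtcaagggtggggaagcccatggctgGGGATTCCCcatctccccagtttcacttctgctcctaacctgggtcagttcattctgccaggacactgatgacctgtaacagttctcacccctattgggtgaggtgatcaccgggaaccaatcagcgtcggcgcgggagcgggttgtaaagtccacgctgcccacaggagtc
B2m: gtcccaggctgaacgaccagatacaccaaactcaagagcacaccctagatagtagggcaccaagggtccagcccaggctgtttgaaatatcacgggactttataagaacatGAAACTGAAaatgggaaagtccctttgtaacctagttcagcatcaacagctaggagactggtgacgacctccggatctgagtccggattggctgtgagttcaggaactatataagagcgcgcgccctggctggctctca
H2-T23: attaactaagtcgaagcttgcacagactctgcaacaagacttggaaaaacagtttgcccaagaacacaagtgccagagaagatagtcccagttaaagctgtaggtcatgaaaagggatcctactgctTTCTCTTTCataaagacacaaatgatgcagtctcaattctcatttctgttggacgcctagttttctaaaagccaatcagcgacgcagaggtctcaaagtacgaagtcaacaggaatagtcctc
H2-Aa: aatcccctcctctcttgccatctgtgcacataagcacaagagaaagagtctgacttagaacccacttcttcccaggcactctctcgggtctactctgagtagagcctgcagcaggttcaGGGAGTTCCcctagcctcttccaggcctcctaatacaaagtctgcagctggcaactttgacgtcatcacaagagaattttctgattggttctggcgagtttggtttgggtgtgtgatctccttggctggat
Tap1: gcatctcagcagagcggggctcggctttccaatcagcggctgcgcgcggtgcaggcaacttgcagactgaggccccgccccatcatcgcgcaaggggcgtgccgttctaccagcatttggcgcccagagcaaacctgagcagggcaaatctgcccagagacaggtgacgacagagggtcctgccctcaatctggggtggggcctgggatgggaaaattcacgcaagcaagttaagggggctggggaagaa

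Shorter elements were matched as letters on both strands in the same windows, where they may overlap one another. Counts are of genes with a match in any of their windows, whereas shares over all are per promoter. H2-K1 and H2-DMa had more than 1 window. CCAAT, the letters of the Y box, was in 16 of 20 class I and 4 of 4 class II genes, against 33.8% of all promoters. The H2-DMa window from 34122582 held none. TGACG, the core of the X2 box, was in 10 of 20 and 1 of 4, against 17.8%. TTCNNNGAA, the interferon gamma-activated site, was in the class I promoters of H2-M3 and Psmb8 and in 7.02% of all. GGGCGG, the GC box, was in 4 of 20 class I genes (Calr, Psmb9, Tap1 and Tapbp) and in 32.7% of all promoters. These matches are descriptions of the letters, and no binding was measured.

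Against normal tissue, the 12 tumors as 1 group had lower levels of 3 of the 34 members and higher levels of none: H2-Q10 and H2-Q2, which encode non-classical class I heavy chains, and H2-DMb1, a subunit of the class II peptide editor. The call was an adjusted p under 0.05 in edgeR's quasi-likelihood test over 16224 genes, which called 31.9% of all genes in this comparison and 15.7% as lower, beside which 3 of 34 is a small count. By class, 2 of 26 class I members and 1 of 7 class II members were called, with median log2 fold changes of -0.39 and -0.26 beside -0.04 over all genes. On the log2(TPM + 1) scale, read with limma, the median of all genes moved by 0.43, and the class I median was -0.03 and that of 6 tested class II members 0.29, so the sign of the class II median depends on the scale. None of the 3 lower calls held on that scale, where H2-Q10 stood at -0.74 (adjusted p = 0.429), H2-Q2 at -1.07 (adjusted p = 0.0865) and H2-DMb1 at -0.59 (adjusted p = 0.148). Psmb10 and H2-Ke6 were called higher there instead. The members varied widely among tumors. The SD of log2 CPM over the 12 tumors had a median of 1.42 over the 34 members (1.42 in class I, 1.62 in class II) and 0.50 over all genes tested, and the median standard error of the fold change was 0.75 beside 0.33.

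The spread ran in the same direction for most members. Corpus replicate 1 had the highest level of all 15 libraries for 21 of the 34 members, among them 9 of the 10 loading and processing genes. Lesser curvature replicate 1 had the lowest level for 25, among them all 10 loading and processing genes. That library also had the highest value of the 15 on the first principal component, 150.8. The share of all genes with their highest or lowest level in these libraries was not computed. These counts are therefore not shown to be particular to the members. Taken as the median over 26 class I members of the log2 CPM minus the mean of the normals, the tumors stood at -2.58, 0.26 and -1.23 in the antrum and at -0.58, 0.51 and -1.85 at the greater curvature. At the lesser curvature they stood at -3.18, -0.24 and -2.33, and in the corpus at 1.28, 0.13 and 0.20. Each of the first 3 sites thus held libraries both near and far below the normals. In lesser curvature replicates 1 and 3, 24 of the 26 lay below all normals, and in antrum replicate 1 it was 23. In corpus replicate 1, 21 of the 26 lay above all normals. The share of all genes outside the normals in each of these single libraries was not computed either.

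**Figure D1:**
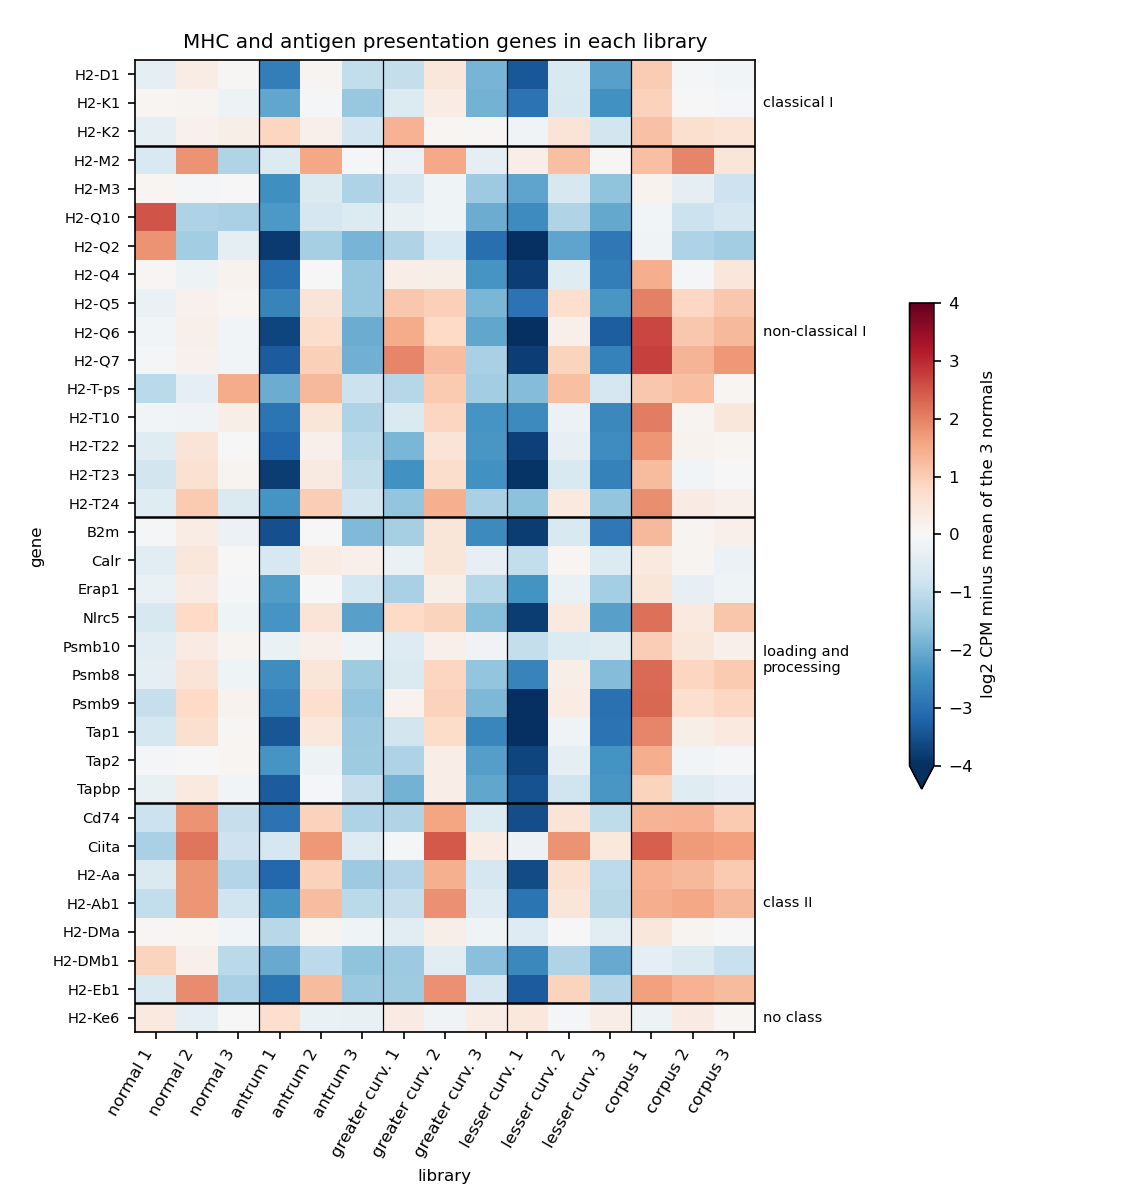
Heat map of the 34 members (rows, by class) in the 15 libraries (columns, by group), with log2 CPM minus the mean of the 3 normals as colour, the scale ending at -4 and 4. Corpus replicate 1 is high and lesser curvature replicate 1 low in most rows, and 4 values lie below the scale, those of H2-Q2, H2-Q6, Tap1 and Psmb9 in lesser curvature replicate 1, at -4.31, -4.88, -4.90 and -4.31.

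The classical heavy chains bind most of the peptides shown to CD8+ T cells. H2-K1 (chromosome 17, 33996017 to 34000347, minus strand) stood at 1206, 1217 and 992 CPM in the normals, 271, 1091 and 400.2 in the antrum tumors and 2163, 1123 and 1079 in the corpus. At the greater curvature it had 775, 1380.1 and 307 CPM, and at the lesser curvature 146, 719 and 212. The lesser curvature tumors all lay below the normals, and the other 3 sites overlapped them. The log2 fold change of all tumors against normal was -0.68 (SE 0.52, adjusted p = 0.307), and 14.9-fold separated the highest tumor from the lowest. H2-D1 followed it, at 738, 1159 and 972 CPM in the normals, 139.5, 1011 and 476 in the antrum and 1896, 893 and 866 in the corpus. Greater curvature tumors held 481, 1284 and 257 CPM and lesser curvature tumors 88.6, 618 and 207. Its log2 fold change was -0.66 (SE 0.60, adjusted p = 0.399). The tumors low for one heavy chain gene were those low for the other, since antrum replicate 1, greater curvature replicate 3 and lesser curvature replicates 1 and 3 held the 4 lowest levels of both. Because these genes are close relatives, 77.2% of the 31-base words in H2-K1 transcripts and 73.1% of those in H2-D1 occur in no other annotated gene, and the rest are shared with other genes. H2-K2, the classical symbol annotated as a pseudogene, had a fold change of 0.40 (SE 0.42, adjusted p = 0.462).

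In TPM, the abundance scaled for transcript length and library total, H2-K1 was the most abundant member in the normals at 1143 ± 112 TPM (SD, n = 3), followed by B2m at 938 ± 183, H2-D1 at 500.5 ± 115 and Calr at 443 ± 137. The transporter, the immunoproteasome subunits and the class II genes were far below these, for example Tap1 at 20.0 ± 10.3 TPM and H2-Aa at 24.3 ± 26.6 TPM (SD, n = 3). Ciita had the lowest mean of the 34, at 0.0117, 0.368 and 0.0251 TPM in the normals.

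Among the 13 non-classical heavy chains, which present restricted sets of ligands or serve as signals to natural killer cells, H2-Q10 and H2-Q2 were called lower in tumors. H2-Q10, a secreted class I molecule known mainly from liver, stood at 82.4, 6.11 and 5.81 CPM in the normals, 2.83, 8.92 and 9.75 in the antrum and 13.4, 7.91 and 8.92 in the corpus. The greater curvature tumors stood at 11.6, 12.9 and 3.56 CPM and the lesser curvature tumors at 2.41, 6.15 and 3.39. A single library, normal replicate 1, was far above all others, and the tumors overlapped the other normals. The fold change of -2.13 (SE 0.64, adjusted p = 0.0262) became 0.27 (adjusted p = 0.724) without normal replicate 1. H2-Q2 stood at 15.1, 1.57 and 3.21 CPM in the normals, 0.184, 1.63 and 1.1 in the antrum and 3.87, 1.74 and 1.57 in the corpus. Of the cardia tumors, those of the greater curvature had 1.81, 2.75 and 0.419 CPM and those of the lesser curvature 0.0983, 0.895 and 0.478. Normal replicate 1 was again the highest, the fold change was -2.51 (SE 0.69, adjusted p = 0.0186), and without that library it was -1.04 (adjusted p = 0.315). Both calls thus rested on 1 library.

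The remaining non-classical genes were not called. H2-Q6 and H2-Q7, which encode the Qa-2 antigen, had wide ranges over tumors beside narrow ones over the normals. H2-Q6 stood at 29.9, 37.4 and 30.3 CPM in the normals, 2.4, 53.3 and 8.15 in the antrum and 205, 69.2 and 79.6 in the corpus, a 209-fold range over tumors, the widest of the 34 (SD 2.43 in log2 CPM, a value reached by 1.66% of genes). In the cardia, levels were 90.4, 56.4 and 7.65 CPM at the greater and 0.983, 37.1 and 3.2 at the lesser curvature. The corpus tumors all lay above the normals, the antrum and the greater curvature held tumors on both sides of them, and the lesser curvature held none above. H2-Q7 had 218, 85.4 and 109.9 CPM in the corpus tumors against 31.7, 36.8 and 30.6 in the normals, with a fold change for that site of 2.06 (SE 1.26, adjusted p = 0.339). The pooled fold changes were 0.16 (SE 1.01, adjusted p = 0.91) for H2-Q6 and 0.57 (SE 1.0, adjusted p = 0.668) for H2-Q7. The 31-base words of H2-Q6 and H2-Q7 that occur in no other gene made up 48.2% and 60.8%, so the split between them is uncertain.

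H2-T23, which encodes Qa-1, the ligand of an inhibitory receptor of natural killer cells, stood at 66.2, 168 and 119 CPM in the normals, 7.87, 140.4 and 57.3 in the antrum and 264, 101 and 108 in the corpus. At the greater curvature it had 20.3, 178 and 20.3 CPM, and at the lesser curvature 7.08, 71.4 and 16.8. The tumors low for H2-K1 were low for H2-T23 too, together with greater curvature replicate 1, and the fold change was -0.74 (SE 0.82, adjusted p = 0.487). H2-M3, which presents peptides that start with formylmethionine, lay below all normals in 11 of 12 tumors, with 5.14, 4.71 and 4.89 CPM in normal tissue and 0.799 to 5.38 among tumors, the highest of which was corpus replicate 1. Its fold change of -0.92 (SE 0.41, adjusted p = 0.0984) did not pass the test. H2-T22 shared 47.2% of its 31-base words with H2-T10 and had 32.6% to itself, and its fold change of -0.58 (SE 0.76, adjusted p = 0.561) carries that uncertainty. The fold changes of the other 6 non-classical genes ran from -0.55 (H2-Q4) to 0.20 (H2-M2), with adjusted p from 0.538 to 0.935. H2-Ke6, in no class, was at 0.11 with the smallest spread over tumors of any member (SD 0.31 in log2 CPM).

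The light chain and most peptide-loading genes followed the heavy chains from tumor to tumor, and none of the 10 loading and processing genes was called in the pooled comparison, though all 10 had a fold change below 0 in CPM, of which 4 kept that sign on the log2(TPM + 1) scale (B2m, Tap1, Tap2 and Tapbp). B2m (chromosome 2, 122147686 to 122153083), without which class I molecules do not reach the cell surface, stood at 664, 848 and 580.4 CPM in the normals, 60.3, 695 and 203 in the antrum and 1699.8, 741 and 788 in the corpus. Greater curvature tumors held 273, 973 and 117 CPM and lesser curvature tumors 49.3, 450.5 and 94.8. Its fold change was -0.73 (SE 0.73, adjusted p = 0.436), its range over tumors 34.5-fold, and every 31-base word of its transcripts was its own. Corpus replicate 1 and greater curvature replicate 2 lay above every normal, and 7 tumors lay below every normal. Tap1, a subunit of the peptide transporter, stood at 25.4, 65.8 and 43.4 CPM in the normals, 3.81, 55.6 and 15.1 in the antrum and 161, 49.4 and 54.3 in the corpus. The greater curvature tumors stood at 24.9, 69.6 and 6.76 CPM and the lesser curvature tumors at 1.28, 37.5 and 5.25. The fold change for all tumors was -0.48 (SE 0.89, adjusted p = 0.688), and its highest tumor was 126-fold above its lowest. Tap2, its partner, stood at 33.6, 35 and 37.2 CPM in the normals, 6.76, 30.6 and 13.1 in the antrum and 97, 32.8 and 33.4 in the corpus. Of the cardia tumors, those of the greater curvature had 15, 42 and 7.49 CPM and those of the lesser curvature 2.65, 26.9 and 6.54. The normals were close to one another for Tap2, 10 of 12 tumors lay below them and only corpus replicate 1 and greater curvature replicate 2 above, yet the fold change of -0.68 (SE 0.63, adjusted p = 0.407) did not pass the test.

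Tapbp, which holds class I molecules beside the transporter, stood at 113, 182 and 129.9 CPM in the normals, 13.7, 130.1 and 72.6 in the antrum and 258, 98.9 and 109.9 in the corpus. In the cardia, levels were 37.6, 168 and 33 CPM at the greater and 12.3, 79.1 and 27.4 at the lesser curvature. Of the tumors 9 lay below all normals, and the fold change was -0.88 (SE 0.64, adjusted p = 0.288), the lowest of the 10 loading and processing genes. Erap1, the trimming peptidase (chromosome 13, 74639568 to 74693201), had 35, 52.4 and 40.1 CPM in the normals, 8.73, 41.5 and 25.4 in the antrum and 58.7, 33.2 and 37.2 in the corpus. At the greater curvature it had 17.1, 49.5 and 18.8 CPM, and at the lesser curvature 7.86, 35 and 16.3. Against normal its fold change was -0.61 (SE 0.47, adjusted p = 0.315). Calr, a general chaperone of the endoplasmic reticulum, had 551, 1025 and 744 CPM in the normals, 475, 925 and 864 in the antrum and 971, 812 and 634 in the corpus. Greater curvature tumors held 622, 1056 and 601 CPM and lesser curvature tumors 382, 786 and 512. Calr thus varied 2.77-fold over tumors, less than any of the other 9 loading and processing genes, and its fold change was -0.12 (SE 0.29, adjusted p = 0.763).

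**Figure D2:**
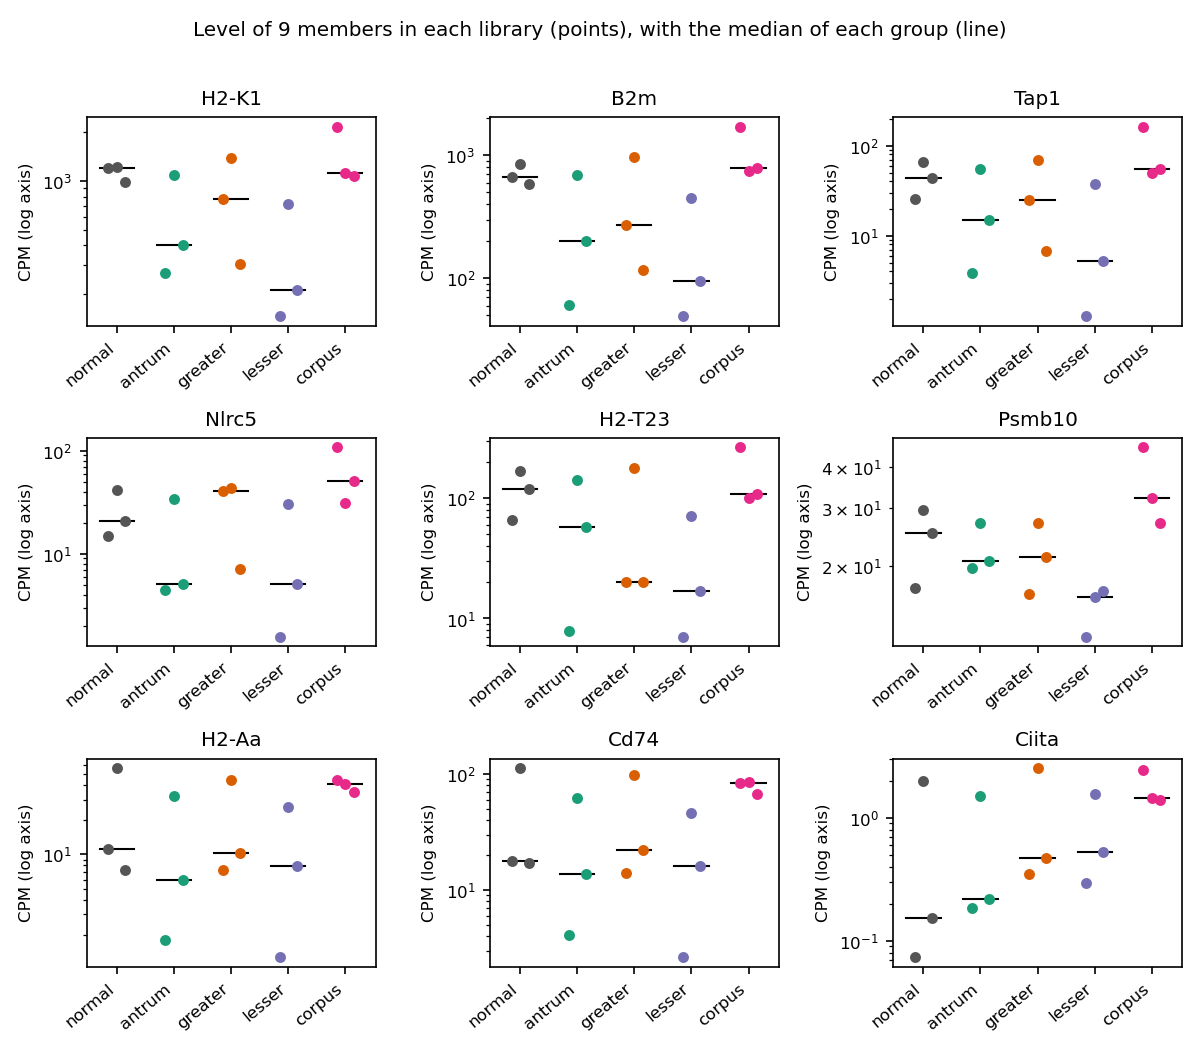
Levels of 9 members in CPM on a log axis by group, with 1 point per library and a line at the median of each group of 3. H2-K1, B2m, Tap1, Nlrc5 and H2-T23 are highest in replicate 2 of the antrum and of both curvatures, whereas Psmb10 stays within a narrow band.

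The immunoproteasome subunits Psmb8, Psmb9 and Psmb10 replace the constitutive catalytic subunits Psmb5, Psmb6 and Psmb7 under interferon and change the ends of the peptides cut. Psmb8 stood at 9.04, 16.7 and 10.4 CPM in the normals, 1.97, 16.3 and 4.24 in the antrum and 56, 21 and 24.1 in the corpus, where all 3 tumors lay above the normals. The greater curvature tumors stood at 7.73, 21.1 and 3.82 CPM and the lesser curvature tumors at 1.72, 13.7 and 3.39. The fold change for the corpus was 1.48 (SE 0.90, adjusted p = 0.339). Psmb9 stood at 5.8, 19.3 and 12.3 CPM in the normals, 1.6, 17.8 and 3.63 in the antrum and 55.2, 17.9 and 20.0 in the corpus. Of the cardia tumors, those of the greater curvature had 12.4, 21.4 and 3.09 CPM and those of the lesser curvature 0.442, 13.7 and 1.29. Its range over tumors was 125-fold, close to that of Tap1, the gene on the other side of the upstream stretch shared by the RefSeq starts. Psmb10, which lies on chromosome 8 (105935735 to 105938444), outside the MHC, stood at 17.1, 29.6 and 25.2 CPM in the normals, 19.6, 27.1 and 20.6 in the antrum and 46, 32.1 and 26.9 in the corpus, a 3.79-fold range. In the cardia, levels were 16.4, 27 and 21.2 CPM at the greater and 12.1, 16 and 16.7 at the lesser curvature. Fold changes of all tumors against normal were -0.08 (SE 0.70, adjusted p = 0.936) for Psmb8, -0.18 (SE 0.90, adjusted p = 0.888) for Psmb9 and -0.10 (SE 0.22, adjusted p = 0.743) for Psmb10. On the log2(TPM + 1) scale in limma Psmb10 was called higher instead, at 0.81 (adjusted p = 0.00368), a scale on which the median gene stood at 0.43.

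As a share of each pair in TPM, the immunoproteasome subunit made up 9.94, 18 and 15.2% of Psmb8 plus Psmb5 in the normals, 2.33, 17.7 and 4.97% in the antrum, 7.81, 23.3 and 4.55% at the greater curvature, 2.67, 15.5 and 4.5% at the lesser curvature, and 39.1, 18.4 and 22.2% in the corpus. The corpus shares were all above those of the normals, and the antrum and both curvatures held shares on either side of the lowest normal. For Psmb9 of Psmb9 plus Psmb6 the share was 3.27, 9.63 and 7.19% in the normals and 0.200% to 24.5% in tumors, lowest in lesser curvature replicate 1 and highest in corpus replicate 1. For Psmb10 of Psmb10 plus Psmb7 it was 22.4, 25.1 and 25% in the normals, 16.8% to 20.5% at the lesser curvature and 24.7% to 35.2% in the corpus. Between the 12 tumors and 3 normals the mean log2 ratios differed by -0.56, -0.71 and -0.00065 for the 3 pairs, and two-sided exact permutation tests over 455 arrangements gave p = 0.547, 0.598 and 1 (Benjamini-Hochberg adjusted over the 3 pairs, 0.897, 0.897 and 1), where the smallest possible p was 0.0022. None of the 3 differences was larger than the spread between libraries.

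**Figure D3:**
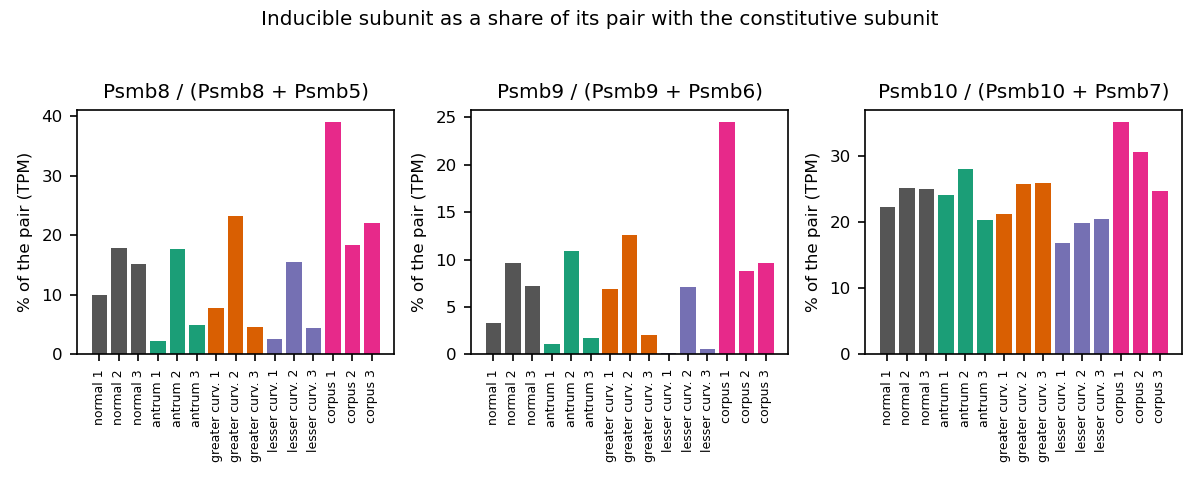
Bars give, for each of the 15 libraries, the immunoproteasome subunit as a percentage of its pair in TPM, in 1 panel for each of the pairs Psmb8 with Psmb5, Psmb9 with Psmb6 and Psmb10 with Psmb7. Corpus replicate 1 has the tallest bar for Psmb8 and Psmb9 (39.1% and 24.5%), and the bars of Psmb10 stay between 16.8% and 35.2% throughout.

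Nlrc5, the class I co-activator (chromosome 8, 94434356 to 94527272), stood at 15, 41.2 and 20.9 CPM in the normals, 4.49, 33.7 and 5.12 in the antrum and 108, 31 and 50.5 in the corpus. At the greater curvature it had 40.7, 43.5 and 7.18 CPM, and at the lesser curvature 1.57, 30.5 and 5.11. Its fold change was -0.09 (SE 0.83, adjusted p = 0.939) and its range over tumors 68.4-fold. The tumors fell into separate sets for Nlrc5, 5 at or below 7.18 CPM and 7 at or above 30.5 CPM, and the same 7 had the 7 highest levels of H2-K1. Within those 7, Pearson's r of log2 Nlrc5 with log2 H2-K1 was 0.80 (exact permutation p = 0.0337, adjusted 0.0786 over the 7 such relations computed within sets) and Spearman's rho 0.57 (exact p = 0.2, adjusted 0.28), and the 5 others were too few for a correlation. A relation between the levels of the co-activator and of H2-K1 inside a set therefore did not pass after adjustment, and a single r over all 12 is not given because the sets are apart.

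B2m formed no such sets. Over the 12 tumors B2m followed H2-K1 with r = 0.98 (permutation p = 1e-05, the smallest that these permutations can give, adjusted 6e-05 over 6 relations) and rho = 0.97 (permutation p = 1e-05, adjusted 6e-05), and r was 0.98 without the 2 tumors farthest from the median and 0.97 after each site's mean was removed. Irf1, a transcription factor induced by interferon, ran from 6.02 CPM in antrum replicate 1 to 86 in corpus replicate 1, with 25.3, 50.5 and 41.7 in the normals. Ifng itself was at 0 in every normal and at most 0.0583 CPM in a tumor.

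**Figure D4:**
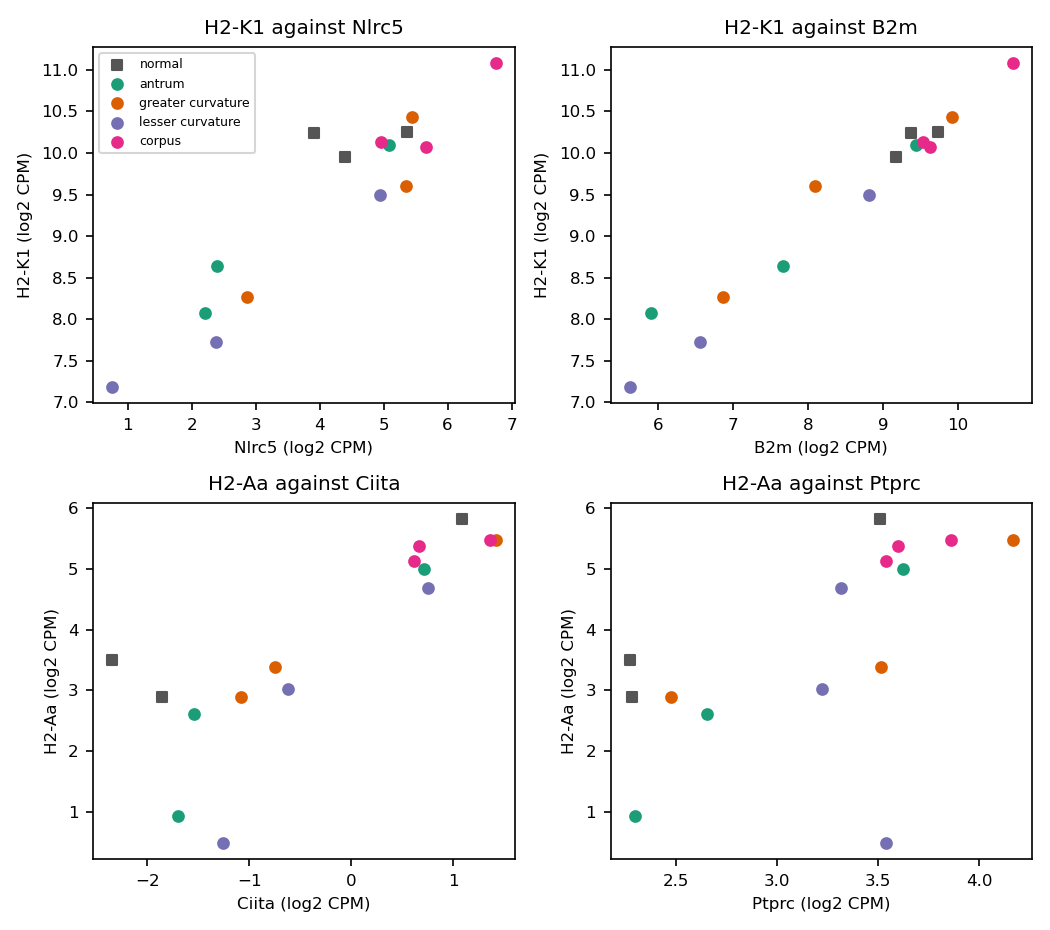
Each panel plots log2 CPM of 2 genes over the 15 libraries, with circles for tumors coloured by site and squares for normals: H2-K1 against Nlrc5 and B2m, and H2-Aa against Ciita and Ptprc. H2-K1 climbs with B2m along the whole range, while Nlrc5 and Ciita split the tumors into a low and a high set.

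Several of the tumors low for class I were also low in epithelial RNA. The 4 epithelial markers were not called between tumors and normals (0 of 4, none at 0 in any library), and their sum was 2969 to 7668 CPM in the normals, 179.7 to 5502 in the antrum, 1733 to 6153 at the greater curvature, 133 to 3054 at the lesser curvature and 3051 to 7294 in the corpus. Of 6 stomach markers 3 were called lower, and their sum of 127729 to 159433 CPM in the normals compares with 774 in antrum replicate 1, 84.9 in lesser curvature replicate 1 and 142765 in corpus replicate 1. Antrum replicate 3, with a class I median of -1.23, had an epithelial sum of 4399 CPM, within the range of the normals. None of 5 neuroendocrine markers was called in all tumors against normal, and their sum was 197 to 836 CPM in the normals and 196 to 5154 in tumors. Among them Insm1 and Syp, singled out after their values were seen, ran opposite to class I at the extremes. Insm1, a transcription factor of neuroendocrine cells, was at 106 to 179 CPM in the 4 tumors with the least H2-K1, and at 2.55 and 9.64 CPM in greater curvature replicate 2 and corpus replicate 1, the 2 tumors with the most. Syp, a synaptic vesicle protein gene, was at 63.3 to 132 CPM in those 4 and at 5.71 and 13.2 CPM in those 2. The 3 smooth muscle markers were all called lower in tumors, with sums of 2310 to 3516 CPM in the normals and 87.5 to 530.4 in tumors. These marker counts stand beside 31.9% of all genes called in all tumors against normal, and 15.7% called lower. The part of epithelial, neuroendocrine or muscle content in the class I levels was not tested.

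The class II genes varied widely among the normals as well as among the tumors, and only H2-DMb1 of the 7 was called. H2-Aa (chromosome 17, 34282744 to 34287823, minus strand), the alpha chain of I-A, stood at 11.2, 56.4 and 7.26 CPM in the normals, 1.78, 32 and 6.0 in the antrum and 44.3, 41.3 and 34.9 in the corpus. The greater curvature tumors stood at 7.32, 44.7 and 10.3 CPM and the lesser curvature tumors at 1.28, 25.7 and 7.98. Its beta chain H2-Ab1 stood at 5.22, 35.6 and 5.96 CPM in the normals, 1.91, 24.4 and 4.85 in the antrum and 28.9, 30.7 and 25.6 in the corpus. Of the cardia tumors, those of the greater curvature had 5.43, 37 and 7.23 CPM and those of the lesser curvature 1.28, 14.5 and 4.78. Normal replicate 2, which had the most squamous marker RNA of the 15 libraries, was high for both, with the replicate 2 tumors of the antrum and both curvatures and all 3 corpus tumors. H2-Eb1, a beta chain of I-E, a molecule that C57BL/6 mice do not assemble for want of its alpha chain, stood at 6.61, 37.9 and 4.05 CPM in the normals, 1.23, 24.5 and 3.52 in the antrum and 31.7, 27 and 24.5 in the corpus. In the cardia, levels were 3.69, 36.3 and 6.29 CPM at the greater and 0.884, 19 and 4.39 at the lesser curvature. Cd74, the invariant chain, stood at 17.8, 113 and 17 CPM in the normals, 4.12, 62.2 and 13.8 in the antrum and 83.4, 86.2 and 67.3 in the corpus. At the greater curvature it had 14, 97.9 and 22.1 CPM, and at the lesser curvature 2.65, 46.4 and 16. These 4 genes thus split the libraries alike, and their fold changes were -0.40 (SE 0.90, adjusted p = 0.741), -0.21 (SE 0.86, adjusted p = 0.863), -0.26 (SE 0.99, adjusted p = 0.85) and -0.38 (SE 0.88, adjusted p = 0.748) in that order. Without normal replicate 2 they were 1.03, 1.27, 1.34 and 1.12, with adjusted p from 0.399 to 0.519, so that this library decided their sign.

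Ciita, which switches class II genes on (chromosome 16, 10480059 to 10528418), stood at 0.0735, 2.01 and 0.153 CPM in the normals, 0.184, 1.52 and 0.220 in the antrum and 2.45, 1.46 and 1.41 in the corpus. Greater curvature tumors held 0.348, 2.55 and 0.471 CPM and lesser curvature tumors 0.295, 1.57 and 0.525. Its fold change was 0.44 (SE 0.98, adjusted p = 0.742), and 3.06 (adjusted p = 0.112) without normal replicate 2. These levels rest on few counts, 1, 23 and 2 for the normals against 3 to 50 per tumor, so a fold between libraries is imprecise at the low end. The tumors fell into a set of 6 at or below 0.525 CPM and a set of 6 at or above 1.41 CPM, and the set high for Ciita was the set with the 6 highest H2-Aa levels. Within the low set, r of Ciita with H2-Aa was 0.65 (exact permutation p = 0.157, adjusted 0.22) and rho 0.77 (exact p = 0.103, adjusted 0.182), and within the high set r was 0.63 (exact permutation p = 0.211, adjusted 0.24) and rho 0.49 (exact p = 0.356, adjusted 0.403). Neither set showed a relation that passed, and n was 6 in each. Across both sets, in the 10 tumors other than the 2 with the least H2-Aa, r was 0.97 and rho 0.88, a description that spans the gap between the sets.

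The peptide editor H2-DM, which exchanges the invariant chain remnant for peptide, had 2 measured subunit genes. H2-DMb1, its beta chain, stood at 13.6, 8.46 and 3.36 CPM in the normals, 1.72, 3.44 and 2.31 in the antrum and 5.69, 4.88 and 3.89 in the corpus. The greater curvature tumors stood at 2.58, 5.45 and 2.2 CPM and the lesser curvature tumors at 1.13, 3.13 and 1.72. Normal replicate 1 was the highest, all 3 lesser curvature tumors lay below the normals, and the other sites overlapped them. The fold change of -1.50 (SE 0.40, adjusted p = 0.0156) was the only class II call, and it was lost without normal replicate 1 (-0.98, adjusted p = 0.129) and missed the threshold without normal replicate 2, where the fold change was again -1.50 (adjusted p = 0.0513). H2-DMb1 shares 31.4% of its 31-base words with H2-DMb2, which had at most 11 counts in any library. H2-DMa, the alpha chain, had 3.01, 3.05 and 2.68 CPM in the normals, 1.29, 3.15 and 2.59 in the antrum and 4.03, 3.14 and 2.87 in the corpus. Of the cardia tumors, those of the greater curvature had 2.16, 3.41 and 2.57 CPM and those of the lesser curvature 2.01, 2.91 and 2.1. Its log2 fold change was -0.13 (SE 0.28, adjusted p = 0.725), and its highest tumor was 3.12-fold above its lowest. H2-Oa and H2-Ob, which form the inhibitor of the editor found mainly in B cells, were too low to be kept, with at most 3 and 11 counts in a library, and H2-Eb2 had at most 2.

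Markers of the cells that usually carry class II were not all called. The counts for these short lists stand beside 31.9% of all genes called in all tumors against normal. Of 5 leukocyte markers 3 were called higher in tumors, with sums of 25.4 to 43.6 CPM in the normals, 37.5 to 51.8 in the antrum, 41.6 to 71.2 at the greater curvature, 54.5 to 66.8 at the lesser curvature and 55.5 to 64.2 in the corpus. Of 8 macrophage and monocyte markers 3 were called higher and 1 lower, with sums of 93 to 100.0 CPM in the normals and 94.9 to 212 in tumors. Of 8 dendritic cell markers 2 could be tested and none was called, with sums of 4.36 to 11.1 CPM in the normals and 7.44 to 17.9 in tumors. Of 5 B cell markers 1 could be tested and it was not called, with sums of 0.698 to 0.841 CPM in the normals and 0.699 to 2.37 in tumors, and among the defining ones Pax5 was at 0 in every normal. The part of any of these cells in the class II levels was not tested.

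Ptprc, which encodes CD45, the common leukocyte antigen, was compared with H2-Aa across the tumors. Over all 12, r was 0.65 (permutation p = 0.0224, adjusted 0.0269 over 6 relations) and rho 0.82 (permutation p = 0.00181, adjusted 0.00217). The relation did not pass on log2(TPM + 1) (r = 0.50, permutation p adjusted to 0.116) or without the 2 tumors farthest from the median of Ptprc (r = 0.51, permutation p = 0.145). After each site's mean was removed, r was 0.60 (permutation p adjusted to 0.0448) and rho 0.51 (permutation p adjusted to 0.113). H2-Aa was lowest in antrum replicate 1 and lesser curvature replicate 1, by a gap of 33.7% of its range. Of these, antrum replicate 1 had the lowest Ptprc of the tumors, at 4.79 CPM, while lesser curvature replicate 1 had 11.5, within the range of the others. In the other 10 tumors r was 0.84 and rho 0.94 for Ptprc, given with no test because the 2 were set aside for their H2-Aa level. Cd79a, a B cell receptor component, gave r = -0.47 (permutation p adjusted to 0.115) and rho = -0.43 (permutation p adjusted to 0.16) over all 12 tumors. Neither passed. In the same 10, r was -0.56 and rho -0.55 for Cd79a, again as a description. Its level was at most 0.955 CPM in a tumor. Corpus replicate 1 held 0.0791 CPM, the worth of 1 count there, and without that library r was -0.39 and rho -0.28.

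By site, the lesser curvature tumors had the lowest presentation genes and the corpus tumors the highest, in fold changes that mostly did not pass. The lesser curvature comparison called 3 members lower, H2-Q10 (-2.99, SE 0.98, adjusted p = 0.0364), H2-Q2 (-3.82, SE 1.13, adjusted p = 0.0251) and H2-DMb1 (-2.10, SE 0.57, adjusted p = 0.0185), beside 33.6% of all genes called and 15.3% called lower. All 26 class I members had a fold change below 0 in CPM there, with a median of -1.35, and 21 of 26 on the log2(TPM + 1) scale, with a median of -1.10 beside 0.63 over all genes. Of the members 6 had an unadjusted p under 0.05, a threshold passed by at least the 33.6% of all genes that were called. H2-K1 was at -1.67 (SE 0.70, adjusted p = 0.0836), B2m at -1.82 (SE 1.0, adjusted p = 0.165) and Psmb10 at -0.68 (SE 0.28, adjusted p = 0.0747). DESeq2 called H2-K1 lower (-1.67, adjusted p = 0.0388), with H2-M3 (-1.41, adjusted p = 0.0275). The direction of Psmb10 turned with the scale, since limma called it higher on log2(TPM + 1), at 0.59 (adjusted p = 0.0424). On that scale H2-Q2 was still called lower (-1.61, adjusted p = 0.042), H2-Ke6 was called higher (0.98, adjusted p = 0.0234), and H2-Q10 and H2-DMb1 were not called. In 11 members (10 of class I and 1 of class II) all 3 lesser curvature tumors lay below all normals, beside 27.3% of all genes. The count of calls moved with single libraries, from 3 to 13 without lesser curvature replicate 2, to 0 without lesser curvature replicate 1 or replicate 3, and to 1 (Psmb10) without normal replicate 1. The share of all genes called without each library is not set beside these counts. The moves are therefore not shown to be particular to the members. Epithelial markers summed to 133 to 3054 CPM and squamous markers to 148 to 775 CPM at this site, and their part was not tested.

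In the corpus, 23 of 26 class I and 6 of 7 class II members had a fold change above 0, with medians of 0.68 and 0.69, and on the log2(TPM + 1) scale 24 of 26 and 5 of 6 did, where the median of all genes was 0.30. By library, the class I median of log2 CPM minus the mean of the normals was 1.28, 0.13 and 0.20, so replicate 1 stood far above the others. For class II it was 1.40, 1.40 and 1.06. None was called by edgeR, none had an unadjusted p under 0.05, and 3.54% of all genes were called. All 3 corpus tumors lay above all normals for 5 members (H2-K2, H2-Q5, H2-Q6, H2-Q7 and Psmb8), beside 17.6% of all genes. In the antrum none of the members was called (14.7% of all genes were), 4 had an unadjusted p under 0.05, and the lowest adjusted p was that of H2-DMb1, 0.0536. H2-M3 and Tap2 were below all normals in all 3 antrum tumors, beside 18.8% of all genes. Tumors of the greater curvature had no member called (9.26% of all genes were), 1 had an unadjusted p under 0.05, and H2-M3 alone lay below all normals in every tumor, beside 14.7% of all genes. At each site the share of all genes with an unadjusted p under 0.05 is at least the share called.

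The sites were not shown to differ from one another. An F test among the 4 sites called 0 of the 34 members and 0% of all genes. Psmb10 alone had an unadjusted p under 0.05, its adjusted p in edgeR was 0.746, and DESeq2 called it (adjusted p = 0.0423). Between the greater and the lesser curvature, 25 of 26 class I members were higher at the greater curvature, with a median log2 fold change of 1.17, but none was called, none had an unadjusted p under 0.05, and 0% of all genes were called. The lowest adjusted p among the members in that comparison was 0.780.

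**Figure D5:**
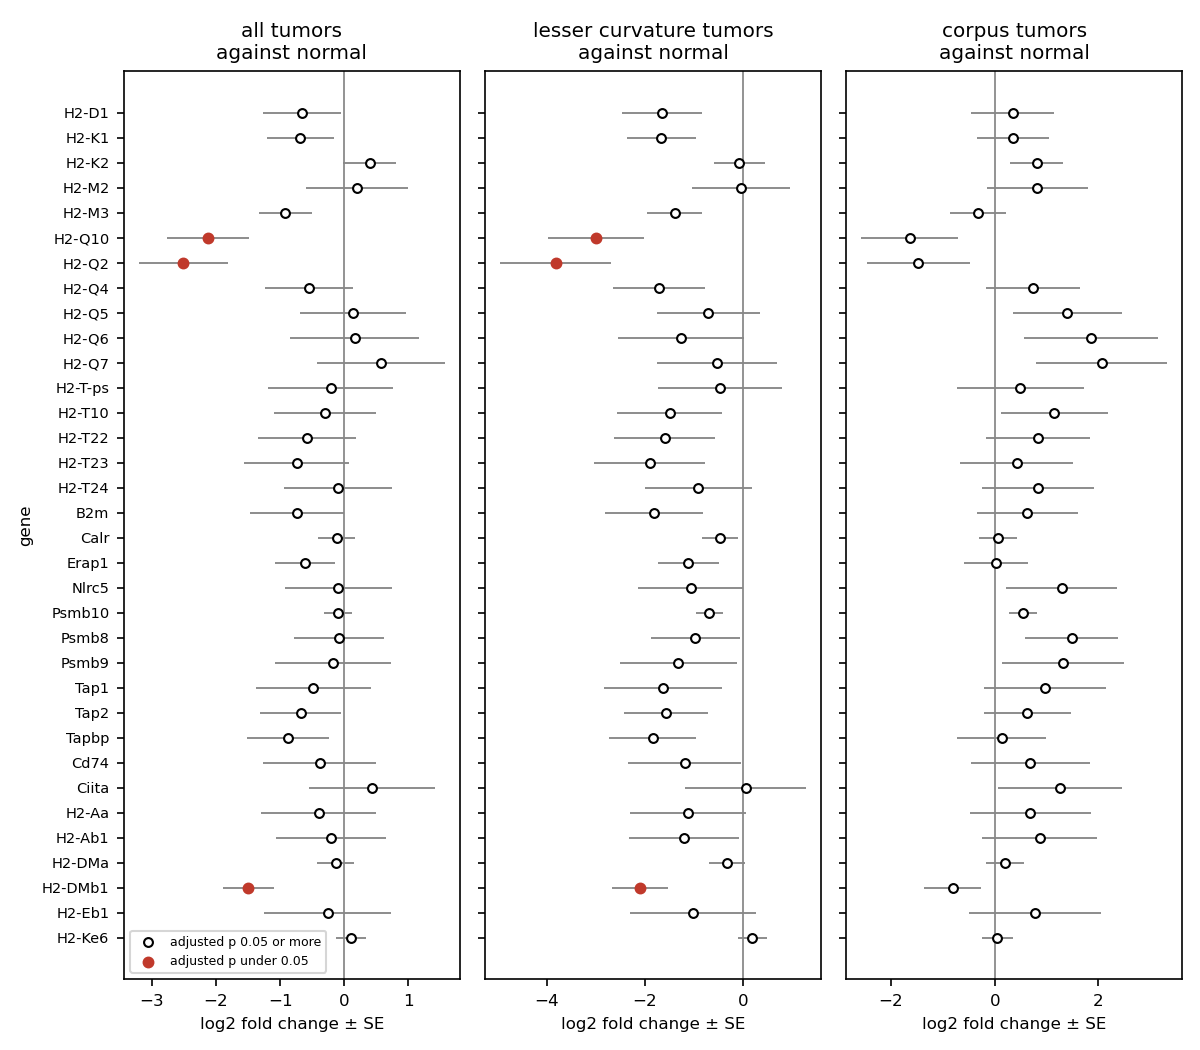
Log2 fold changes against normal with their standard errors for the 34 members, in panels for all tumors, the lesser curvature and the corpus, with red points at an adjusted p under 0.05 in edgeR. Only H2-Q10, H2-Q2 and H2-DMb1 are red, in the first 2 panels, and class I lies to the left of 0 at the lesser curvature and mostly to the right of it in the corpus.

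Around the pathway, of 7 genes of class II control and endosomal processing, 4 were called higher in tumors, namely the endosomal proteases Ctss, which removes the invariant chain (1.24, SE 0.23, adjusted p = 0.00384), and Lgmn (0.70, SE 0.15, adjusted p = 0.00664), and the X-box factor subunits Rfx5 (0.78, SE 0.23, adjusted p = 0.0251) and Rfxap (0.50, SE 0.17, adjusted p = 0.0431). The thiol reductase Ifi30 (-1.38, SE 0.46, adjusted p = 0.0386) and the third X-box subunit Rfxank (-1.16, SE 0.41, adjusted p = 0.0472) were called lower, and Ctsl was not called. Macrophage and monocyte markers, of which 3 of 8 were called higher as well, have their sums given above, and their part in these calls was not tested. Of 7 class I-like genes, Ulbp1, a ligand of the activating receptor NKG2D (1.76, SE 0.50, adjusted p = 0.0219), and Cd1d1, which presents lipids (1.15, SE 0.35, adjusted p = 0.0268), were called higher. Azgp1 (-3.98, SE 0.68, adjusted p = 0.00309), the iron regulator Hfe (-0.90, SE 0.31, adjusted p = 0.0425) and the antibody receptor Fcgrt (-0.49, SE 0.17, adjusted p = 0.0485), the last 2 of which pair with B2m, were called lower.

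Of 12 other loading and processing genes 1 was called, Psme3, a proteasome activator subunit (0.52, SE 0.14, adjusted p = 0.0157), and the constitutive subunits Psmb5, Psmb6 and Psmb7 were not. Of 12 tested genes of interferon gamma signalling, the chemokine Cxcl10 was called higher (1.54, SE 0.54, adjusted p = 0.0478) and the repressor Irf2 lower (-0.93, SE 0.32, adjusted p = 0.0428). Of 7 checkpoint and co-stimulation genes none was called by edgeR. The smallest p among them was that of Cd40 (1.06, SE 0.42, adjusted p = 0.0703), and Cd274, which encodes PD-L1, was at 0.12 (SE 0.38, adjusted p = 0.825). Each of these counts stands beside the 31.9% of all genes called in this comparison.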

How the data were processed

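RNA was extracted with RNeasy columns and sequenced as paired-end reads on an Illumina NovaSeq, per the labels' protocols. Per the submitters' processing notes, bcl2fastq 2.19, kallisto 0.44.0, sleuth, DESeq2 and GRCm38.p6 were used, without the role of each. The authors deposited estimated counts per gene as whole numbers for 36144 genes. A second table is named for FPKM, but every column had the same total of 1e+06, so its deposited values were read as TPM, where FPKM had been assumed. The annotation, the summing of transcripts to genes and the handling of the Myc transgene were not given.

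Libraries were grouped by their labels. Counts were fitted over all 15 libraries by group with edgeR 4.0.16 (TMM normalization, robust quasi-likelihood F test, R 4.3.3), after filterByExpr with a minimum count of 10, which left 16224 genes, and p-values were adjusted over all of them by the Benjamini-Hochberg method. All 34 members were tested. Fold changes are log2, tumor over normal, their SE is the absolute value divided by the square root of F, and log2 CPM used a prior count of 2. Alternatives were DESeq2 1.42.0, other size factors, no filter, limma 3.58.1 on log2(TPM + 1) and log2(TPM + 0.1), a replicate block, only the groups compared, and each library left out. Proteasome shares were compared by exact permutation and relations by 100000 permutations with SciPy 1.17.1 (Python 3.11.15). Sets of tumors for the relations, split where the widest gap took over 33.3% of a gene's range, were chosen after seeing the data. The edgeR fit was tested on simulated data in which the spread of each gene was capped. That test does not speak for members that varied more widely than the cap. Whether replicates are separate animals is not given, so the p-values speak only of spread among these libraries. Library totals of 7957160 to 21565000 counts limit the precision of low genes. Every member could be named. Those of known central role and those called are given in each library, the rest by range and count. The members and lists were chosen with earlier results of these data known. In the marker and pathway lists, March1 and March8 were not analysed here. One of the 6 relations adjusted together is not reported here.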

Additional observations from a re-analysis of the deposited data

How the results depend on the processing

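The count of members called in all tumors against normal was 3 in the design used and 1 with limma on log2(TPM + 1) without a filter. In the antrum it was 0, against 2 with DESeq2, 1 with the replicate block, and 1 with limma on log2(TPM + 1), on log2(TPM + 0.1) and without a filter. At the greater curvature it was 0, against 1 with limma on log2(TPM + 1) and 1 on log2(TPM + 0.1). At the lesser curvature it was 3, against 7 with the replicate block, 1 with only the groups compared and 1 with limma without a filter. In the corpus it was 0, against 1 with only the groups compared (H2-Q7) and 1 with each of the 3 limma settings (Psmb10). Among the 4 sites it was 0, against 1 with DESeq2 (Psmb10). With each library left out in turn the counts ran from 0 to 3 for all tumors, 0 to 1 at the greater curvature and 0 to 13 at the lesser curvature, and were 0 throughout in the antrum, in the corpus, among the sites and between the curvatures. Without greater curvature replicate 2 and corpus replicate 1 together, an alternative chosen after seeing the data, they were 3 for all tumors and 0 at the greater curvature and in the corpus. The share of all genes called under each setting is not set beside these counts, which are therefore not shown to be particular to the members. The signs of H2-Q10 (-2.62 to 0.27 with each library left out, the latter without normal replicate 1) and of Psmb10 (0.81, 0.83 and 0.81 on the 3 TPM scales, adjusted p = 0.00368, 0.00342 and 0.00506) reversed. The median of all genes stood at 0.43, 0.52 and 0.10 on those scales, and the cause was not tested. H2-Ke6 was called higher on log2(TPM + 1) and log2(TPM + 0.1), at 0.69 and 0.71 (adjusted p = 0.0423 and 0.0416). Of 820 values of single members under other settings 760 were counted as unchanged. For a member called in neither setting, that meant a fold change within 1 SE of the main one. For a called member it meant the same sign and a call again, whatever the size. The differences in log2 proteasome ratio kept to their side of the test throughout, from -0.85 to -0.35, from -1.19 to -0.32 and from -0.07 to 0.06 for the 3 pairs with each library left out. For Ptprc with H2-Aa, r fell from 0.65 over all 12 tumors to 0.50 on log2(TPM + 1) and 0.51 without the 2 tumors farthest from the median, and neither passed.

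The replicate numbers were not treated as pairs. Over 30 pairs of libraries with the same number, deviations from the group means correlated at -0.57 to 0.69 (median 0.17, 17 of 30 over 0.1), beside a median of -0.07 over 60 pairs with different numbers. With the replicate block the count of members called was 2 for all tumors, 1 in the antrum, 0 at the greater curvature, 7 at the lesser curvature and 0 in the corpus. Here too the share of all genes called is not set beside the counts. At the lesser curvature the block called H2-K1 (-1.95, adjusted p = 0.0262), B2m (-2.38, adjusted p = 0.0424), H2-D1, H2-M3 and Tapbp lower beside H2-Q2 and H2-DMb1, and H2-Q10 was not called. Depth limits H2-T-ps, H2-M2 and Ciita most, with 182, 229 and 237 counts over the 15 libraries.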
